A study of Mus musculus with 11 samples.

Results

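The GIMAP genes (GTPases of the immunity-associated protein family) were taken as the rows of the deposited count table named Gimap1, Gimap3, Gimap4, Gimap5, Gimap6, Gimap7, Gimap8 and Gimap9, which gave 8 of 46078 genes. All 8 passed the filter on low counts and were tested among 16365 genes. The samples were T cells sorted from kidneys of WT mice with glomerulonephritis. All mice, in every group, had been immunised against recombinant mouse MPO (myeloperoxidase, a neutrophil enzyme) and then given a low dose of sheep globulin directed at mouse basement membrane, and kidneys were taken at day 21. The 4 groups were CD4+CD127-PD-1+ (n = 2 libraries), CD4+CD127+PD-1- (n = 3), CD8+CD127-PD-1+ (n = 3) and CD8+CD127+PD-1- (n = 3), and the series' title concerns neutralisation of the IL-7 receptor alpha chain, which is CD127. PD-1 is an inhibitory receptor that T cells raise after antigen stimulation. Each library came from cells of 3 pooled mice, so the spread below, and every p-value that rests on it, is that of pools rather than of single mice. The CD4+CD127-PD-1+ group has 2 libraries because another of its samples was lost to quality control, as the series' design text states.

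GIMAP proteins are small-GTPase-like proteins of lymphocytes that sit on intracellular membranes through their C-terminal ends, and some of them assemble on GTP into dimers or filaments. Loss of Gimap5 in rats and mice causes a loss of peripheral T cells, and loss of Gimap1 removes mature T and B cells, so the family is known for its part in the survival of resting lymphocytes. GIMAP6 binds the ATG8-family protein GABARAPL2 and is tied to autophagy, GIMAP5 has been placed on lysosomes and linked to GSK3 beta, and several members have been reported to bind proteins of the BCL2 family.

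Library totals ran from 10.6 to 16.1 M counts, and 20514 to 21849 genes were detected per library. Il7r, which encodes CD127, and Pdcd1, which encodes PD-1, followed the sort: Il7r had a log2 fold change of -4.17 in CD4 and -4.51 in CD8 cells (CD127-PD-1+ over CD127+PD-1-), and Pdcd1 one of 3.41 and 3.38. The summed level of 16 pan-T genes ranged from 2050 to 3210 CPM (the usual depth-normalised count, with TMM-scaled library sizes) over the 4 groups, with 2 of the 16 lower and 0 higher in each state comparison and none at 0 in all libraries of a group. Counts of macrophage genes differed between the sorted states. Their sum over 16 genes was 1530 to 3190 CPM in CD4+CD127-PD-1+ against 159 to 312 CPM in CD4+CD127+PD-1- libraries and 1550 to 3030 against 180 to 326 CPM in the CD8 groups, and 15 of the 16 were higher in both state comparisons. The 12 plasmacytoid dendritic cell genes went the other way, with sums of 485 to 683 against 1090 to 2160 CPM in CD4 and 490 to 566 against 867 to 1700 CPM in CD8 cells, where 7 and 5 of the 12 were lower. None of these genes was at 0 in all libraries of a group. Of the other lists, B cell genes (12) summed to 200 to 950 CPM with 0 called in CD4 and 4 higher in CD8 cells, and NK and innate lymphoid genes (10) to at most 370 CPM with 0 called in CD4 and 2 higher in CD8 cells. Neutrophil genes (8 of 10 tested) summed to 3.19 to 298 CPM, with 1 and 7 higher, and Elane and Camp were at 0 in CD4+CD127+PD-1- libraries. Endothelial genes (5 of 12 tested) summed to 32.0 to 157 CPM, with 1 higher and 2 lower in CD4 and 2 lower in CD8 cells, and Tie1 was at 0 in CD4+CD127-PD-1+ libraries. Mitochondrial ribosomal RNA took 35.7 to 40.8% of counts in CD8+CD127-PD-1+ libraries and 28.1 to 31.8% in the other 3 groups. These values lie beside every state difference below, and their part in those differences was not tested.

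The 8 genes lie in a single cluster on chromosome 6 (GRCm38, GENCODE M21), from 48647234 to 48770851 (123.6 kb). Their order is Gimap8, Gimap9, Gimap4, Gimap6, Gimap7, Gimap1, Gimap5 and Gimap3, and Gimap6 and Gimap3 are on the minus strand. The upstream sequences of 3 members are shown because they frame the results: Gimap6 and Gimap9 were the members that fell, and Gimap4 was the most abundant member per kb of exon and did not pass the test. Each is the 250 bases before the RefSeq transcription start (GRCm38.p6), read 5′ to 3′ on the gene's strand, at chr6:48708245-48708494 for Gimap6 (minus strand), chr6:48675885-48676134 for Gimap9 (plus strand) and chr6:48684328-48684577 for Gimap4 (plus strand). Capitals mark matches, on either strand, to 6 short motifs: AGGAAG (ETS), TGTGGT (RUNX), CTTTGA (TCF and LEF), TGTTTAC (FOXO), CCACCC (KLF) and TTCNNNGAA (STAT).
Gimap6: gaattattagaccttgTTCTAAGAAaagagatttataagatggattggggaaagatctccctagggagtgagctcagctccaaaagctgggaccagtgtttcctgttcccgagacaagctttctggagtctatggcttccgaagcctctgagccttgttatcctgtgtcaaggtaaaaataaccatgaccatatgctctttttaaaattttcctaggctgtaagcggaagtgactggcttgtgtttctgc
Gimap9: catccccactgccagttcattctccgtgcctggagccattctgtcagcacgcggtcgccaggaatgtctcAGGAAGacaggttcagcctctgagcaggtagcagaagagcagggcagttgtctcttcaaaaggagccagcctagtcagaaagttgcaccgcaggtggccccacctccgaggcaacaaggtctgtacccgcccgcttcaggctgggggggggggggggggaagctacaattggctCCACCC
Gimap4: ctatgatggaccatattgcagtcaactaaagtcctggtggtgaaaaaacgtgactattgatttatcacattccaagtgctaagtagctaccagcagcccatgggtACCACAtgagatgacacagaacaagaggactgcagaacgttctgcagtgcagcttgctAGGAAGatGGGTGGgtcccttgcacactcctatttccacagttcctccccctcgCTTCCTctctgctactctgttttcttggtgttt

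The Gimap6 stretch held a single match, to the STAT letters at 234 bases before the start, and it was the only member without the exact ETS letters AGGAAG in this window. Near its end it does hold CGGAAG, which differs from those letters only in the first. Farther from the start it holds CTTCCG, which is CGGAAG on the opposite strand. Neither was counted. The Gimap9 stretch held the ETS letters at 180 and the KLF letters at 6 bases before the start. The Gimap4 stretch held the ETS letters at 87 and, on the opposite strand, at 33 bases, with the RUNX letters at 145 and the KLF letters at 79. Over the family, all 8 members matched a RefSeq promoter (Gimap8 with 2 start sites), and 7 of 8 held the ETS letters, against 29.5% of 32851 promoters of the same length. Members were counted by gene and the background by promoter, and all matches of Gimap8 lay at start site 2, so the units differ. The KLF letters stood in 5 of 8 members (28.1% of all promoters), the RUNX letters in 3 of 8 (Gimap1, Gimap4 and Gimap7; 14.0%), the STAT letters in 2 of 8 (Gimap6 and Gimap8; 7.0%), where the Gimap8 match overlapped its ETS match, the FOXO letters in 1 of 8 (Gimap3; 3.2%) and the TCF and LEF letters in 0 of 8 (13.8%). A match is a description of letters and does not show a bound site, and a missing match does not show that a site is absent.

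Between CD127-PD-1+ and CD127+PD-1- cells, Gimap6 was the member that differed in both lineages, and it was lower in the CD127-PD-1+ cells. In CD4 cells it was the only one of the 8 that passed the test (adjusted p below 0.05 in edgeR's quasi-likelihood test). In CD8 cells Gimap6 and Gimap9 were lower. No member was called higher in either lineage, with 0 positive differences at an unadjusted p under 0.05 and 0 called by DESeq2 or limma-voom. Gimap7 was called higher in 1 of 16 alternative settings in CD4 and 2 of 17 in CD8 cells. In simulated data 100 genes were changed by each size. Of those with a true log2 change of 0.5 the test recovered 2% (CD4) and 7% (CD8), and of those with 1, 73% and 81%. Far fewer genes were changed there than were called in the data, which makes the adjustment stricter. These shares may thus be too low for the members. A change near 0.5 in a member that did not pass remains possible. Of all 16365 tested genes, 4.87% were called lower and 6.81% higher in the CD4 comparison, and 6.56% lower and 9.05% higher in the CD8 comparison. The counts of 1 and 2 lower members of 8 rest on Gimap6 and Gimap9 and do not describe the other members. With summed pan-T counts as library size, 310 genes were lower and 754 higher in CD4 cells (797 and 1115 in the main test) and 389 lower and 1633 higher in CD8 cells (1074 and 1481). The median log2 fold change of the 8 members was 0.06 in CD4 and -0.18 in CD8 cells, against 0.02 and 0.01 over all tested genes. In CD8 cells 6 of the 8 estimates were negative, of which those of Gimap1, Gimap5 and Gimap8 turned positive (0.19, 0.01 and 0.02) under that scaling, which put the median of all genes at 0.21.

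Gimap6, at chromosome 6, 48701582 to 48708225 on the minus strand (ENSMUSG00000047867), encodes the member that binds GABARAPL2. Its level was 235 and 196 CPM in both CD4+CD127-PD-1+ libraries and 495, 540 and 394 CPM in all 3 CD4+CD127+PD-1- libraries. It measured 266, 222 and 209 CPM in CD8+CD127-PD-1+ and 439, 425 and 440 CPM in CD8+CD127+PD-1- libraries. All 5 CD127-PD-1+ libraries were below all 6 CD127+PD-1- libraries, in CD4 and CD8 cells alike. Group means were 216 ± 27.6 CPM (SD, n = 2) against 476 ± 74.5 CPM (n = 3) in CD4 cells, a log2 fold change of -1.14 (SE 0.15, 95% interval -1.48 to -0.81, adjusted p = 0.000967), so that CD127-PD-1+ cells held 45.3% of the level of their counterparts. In CD8 cells the means were 232 ± 29.7 and 435 ± 8.38 CPM (n = 3 each), a log2 fold change of -0.90 (SE 0.13, interval -1.20 to -0.61, adjusted p = 0.00104), which left 53.4%. The difference between the CD4 and the CD8 change was -0.24 (SE 0.20, interval -0.67 to 0.19, adjusted p = 0.987), and differences up to the ends of that interval remain possible. Gimap6 was called under all 16 alternative settings of the CD4 comparison and all 17 of the CD8 comparison, each left-out library included. With mitochondrial genes left out of the counts the CD8 value was -0.94, and with pan-T counts as library size it was -0.72. In bulk RNA of sorted cells, fewer cells that express a gene and less RNA of it per cell cannot be told apart.

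**Figure D1:**
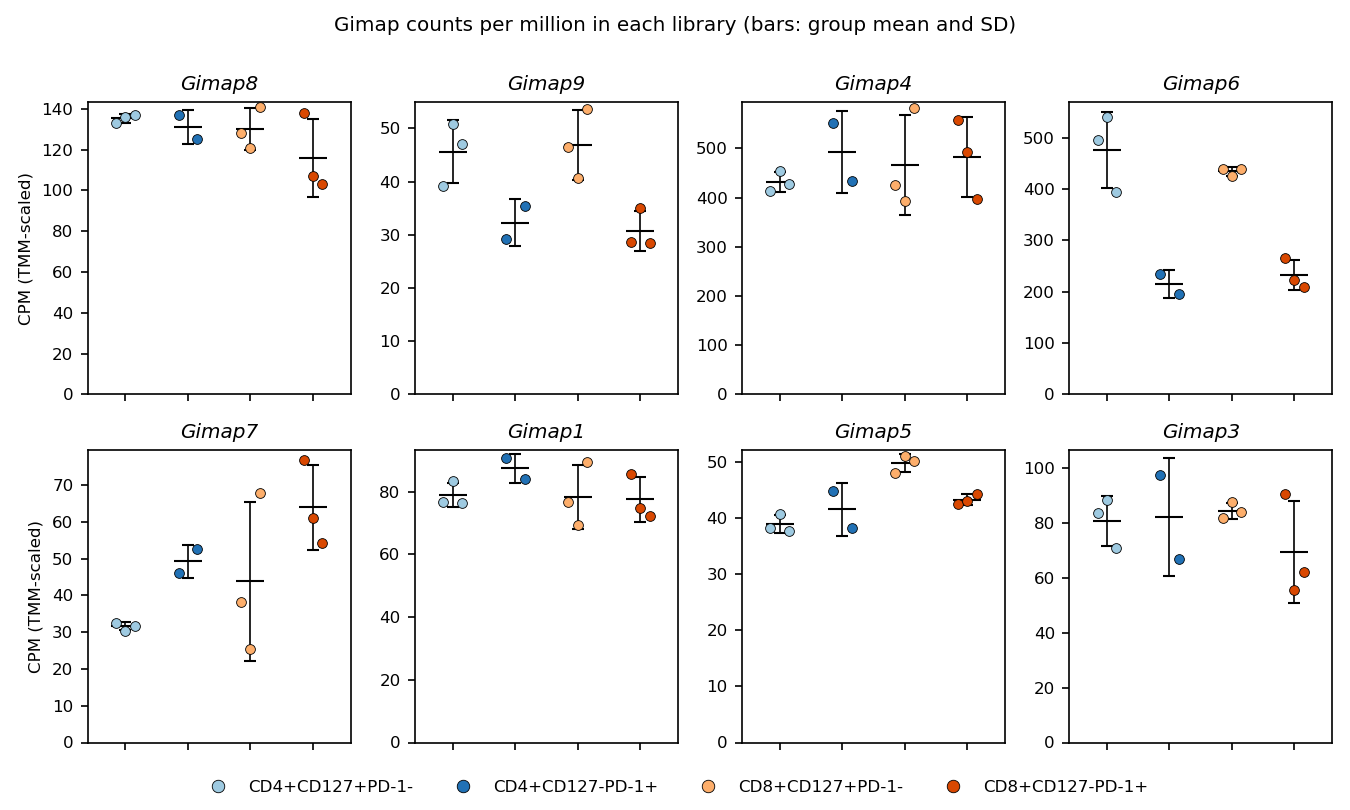
CPM (vertical axis, TMM-scaled, from 0, own scale per panel) of the 8 Gimap genes in each of the 11 libraries, grouped by sorted population; horizontal bars are group means and error bars SD (n = 2 or 3 pools). Gimap6 lies at 196 to 266 CPM in the CD127-PD-1+ libraries and 394 to 540 CPM in the CD127+PD-1- libraries. Gimap9 does not overlap between the states in either lineage, nor do Gimap1 and Gimap7 in CD4 or Gimap5 in CD8 cells. Gimap3, Gimap4 and Gimap8 overlap in both lineages.

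Gimap9, at chromosome 6, 48676129 to 48679114 on the plus strand (ENSMUSG00000051124), is a little-studied member that lies next to Gimap8 at the start of the cluster. In CD4 cells its level was 29.2 and 35.4 CPM in CD127-PD-1+ and 39.1, 50.8 and 47.0 CPM in CD127+PD-1- libraries. It measured 28.6, 35.1 and 28.5 CPM in CD8+CD127-PD-1+ and 46.5, 40.6 and 53.6 CPM in CD8+CD127+PD-1- libraries. As for Gimap6, the CD127-PD-1+ libraries lay below the CD127+PD-1- libraries of the same lineage without overlap. In CD8 cells the means of 30.7 ± 3.77 and 46.9 ± 6.52 CPM gave a log2 fold change of -0.61 (SE 0.15, interval -0.95 to -0.27, adjusted p = 0.0203), or 65.5% of the level. In CD4 cells the means of 32.3 ± 4.32 and 45.7 ± 5.97 CPM gave -0.50 (SE 0.17, interval -0.88 to -0.12), which did not pass the test (adjusted p = 0.0915). The CD8 call was lost without replicate 1 (adjusted p = 0.063) or replicate 3 (0.0822) of CD8+CD127-PD-1+, without replicate 3 of CD8+CD127+PD-1- (0.0609), and with pan-T counts as library size (-0.39, adjusted p = 0.211; -0.60 less the median of all genes under that scaling).

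Gimap7, at chromosome 6, 48718621 to 48724636 on the plus strand (ENSMUSG00000043931), encodes a GTPase known to form dimers with other family members and to stimulate their GTP hydrolysis. It was the member with the most positive estimates in both lineages, and neither passed the test. In CD4 cells its level was 46.1 and 52.5 CPM in CD127-PD-1+ and 32.6, 30.4 and 31.8 CPM in CD127+PD-1- libraries, which do not overlap. In CD8 cells it measured 76.7, 61.0 and 54.2 CPM in CD127-PD-1+ and 38.1, 25.5 and 67.8 CPM in CD127+PD-1- libraries, where replicate 3 of CD8+CD127+PD-1- overlapped the other group. The log2 fold changes were 0.64 (SE 0.30, interval -0.02 to 1.31, adjusted p = 0.212) in CD4 and 0.55 (SE 0.27, interval -0.05 to 1.14, adjusted p = 0.211) in CD8 cells. Without replicate 3 of CD8+CD127+PD-1- the CD8 value was 1.01 and passed the test (adjusted p = 0.00654), so 1 library decided that call. Gimap7 also passed in CD8 cells with pan-T counts as library size (0.77, adjusted p = 0.0484), where the value less the median of all genes was 0.56, and in CD4 cells when only the CD4 groups were fitted (0.64, adjusted p = 0.0301).

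**Figure D2:**
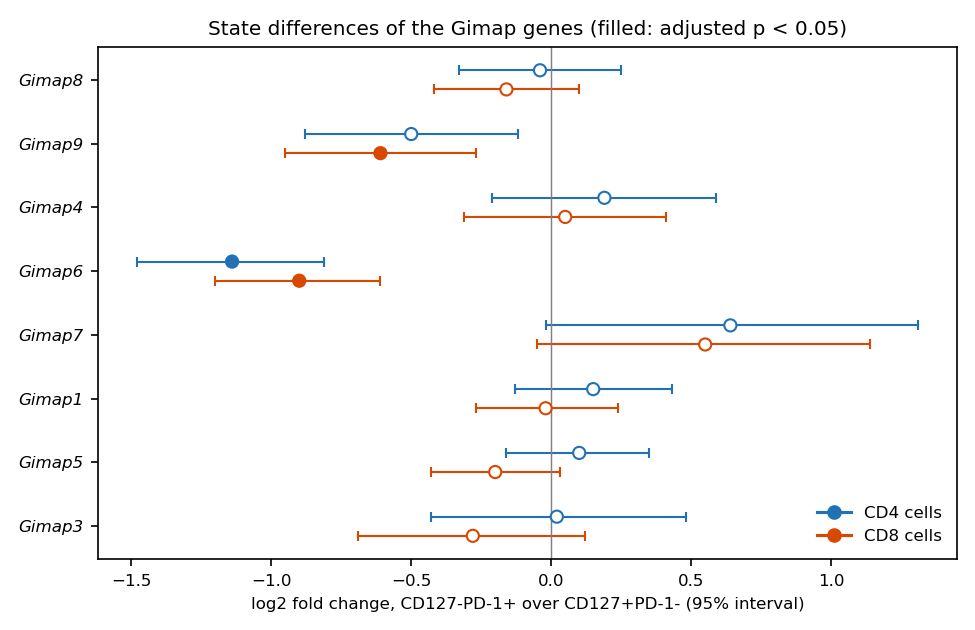
Log2 fold change of each Gimap gene, CD127-PD-1+ over CD127+PD-1- (horizontal axis), in CD4 (blue) and CD8 cells (orange), in the order of the genes on the chromosome; bars are 95% intervals and filled points passed the test. The filled points are Gimap6 in both lineages (-1.14 and -0.90) and Gimap9 in CD8 cells (-0.61).

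Gimap4, at chromosome 6, 48684549 to 48692060 on the plus strand (ENSMUSG00000054435), encodes a member that has been linked to T cell death and cytokine secretion. In CD4 cells its level was 552 and 434 CPM in CD127-PD-1+ and 413, 454 and 427 CPM in CD127+PD-1- libraries. In CD8 cells it measured 558, 492 and 397 CPM in CD127-PD-1+ and 425, 393 and 583 CPM in CD127+PD-1- libraries. The groups overlapped in both lineages, and the spread within a group reached that between groups. Log2 fold changes were 0.19 (interval -0.21 to 0.59, adjusted p = 0.565) and 0.05 (interval -0.31 to 0.41, adjusted p = 0.893), and both intervals stop short of the estimates of Gimap6.

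Gimap5, at chromosome 6, 48746197 to 48754210 on the plus strand (ENSMUSG00000043505), is the member whose loss depletes peripheral T cells. In CD4 cells its level was 44.8 and 38.2 CPM in CD127-PD-1+ and 38.2, 40.7 and 37.7 CPM in CD127+PD-1- libraries. In CD8 cells it measured 42.4, 43.0 and 44.3 CPM in CD127-PD-1+ and 48.0, 51.0 and 50.2 CPM in CD127+PD-1- libraries. The CD4 groups overlapped, and the CD8 groups did not. The log2 fold changes of 0.10 (interval -0.16 to 0.35, adjusted p = 0.671) in CD4 and -0.20 (interval -0.43 to 0.03, adjusted p = 0.224) in CD8 cells did not pass the test.

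Gimap1, at chromosome 6, 48739054 to 48743795 on the plus strand (ENSMUSG00000090019), is the member that mature T and B cells need for survival. In CD4 cells its level was 90.7 and 84.2 CPM in CD127-PD-1+ and 76.9, 83.3 and 76.4 CPM in CD127+PD-1- libraries. It measured 85.8, 74.7 and 72.2 CPM in CD8+CD127-PD-1+ and 76.6, 69.3 and 89.5 CPM in CD8+CD127+PD-1- libraries. The CD4 groups did not overlap and the CD8 groups did. The log2 fold changes of 0.15 (interval -0.13 to 0.43, adjusted p = 0.523) and -0.02 (interval -0.27 to 0.24, adjusted p = 0.948) did not pass the test. Of the exon bases of Gimap1, 36.0% (1107 bases) overlap the antisense gene Gimap1os, and 33.2% of its 75-base windows, the read length, also occur in another gene's transcripts. The strand setting of the counting is not given in the sources used here, so reads of Gimap1 and Gimap1os cannot be told apart there. Gimap1os itself had log2 fold changes of 0.18 (adjusted p = 0.715) in CD4 and 0.30 (adjusted p = 0.428) in CD8 cells.

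Gimap3, at chromosome 6, 48764464 to 48770851 on the minus strand (ENSMUSG00000039264), is a close relative of Gimap5 that has been reported to bind BCL2 proteins. The CD4 libraries held 97.6 and 67.0 CPM in CD127-PD-1+ and 83.7, 88.3 and 70.8 CPM in CD127+PD-1- libraries, which overlap. In CD8 cells it measured 90.7, 55.8 and 62.1 CPM in CD127-PD-1+ and 82.0, 87.7 and 84.1 CPM in CD127+PD-1- libraries, where 2 of the 3 CD127-PD-1+ libraries lay below the others and 1 above. The log2 fold changes were 0.02 (interval -0.43 to 0.48, adjusted p = 0.961) and -0.28 (interval -0.69 to 0.12, adjusted p = 0.347), and the CD4 sign changed with the setting. Of the 75-base windows of Gimap3 3.3% also occur in Gimap5, the only windows that members share with one another, so their reads may be assigned uncertainly to that extent.

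Gimap8, at chromosome 6, 48647234 to 48660875 on the plus strand (ENSMUSG00000064262), encodes the longest member, with a reading frame of 688 codons where the other 7 have 291 to 328, and carries more than 1 GTPase domain. Within the CD4 lineage it measured 137 and 125 CPM in CD127-PD-1+ and 133, 136 and 137 CPM in CD127+PD-1- libraries. It measured 138, 107 and 103 CPM in CD8+CD127-PD-1+ and 128, 121 and 141 CPM in CD8+CD127+PD-1- libraries. Both pairs of groups overlapped, with log2 fold changes of -0.04 (interval -0.33 to 0.25, adjusted p = 0.888) and -0.16 (interval -0.42 to 0.10, adjusted p = 0.409). Gimap8, Gimap9, Gimap4 and Gimap6 share no exon base with another gene and no 75-base window with another transcript, so the counts behind the calls of Gimap6 and Gimap9 do not rest on shared sequence of that length.

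The levels of the 8 genes, given as CPM per kb of exon so that genes can be compared, fell in nearly the same order in the 4 groups at both ends. Gimap4 was highest in all 4, at 268 ± 45.4 in CD4+CD127-PD-1+, 235 ± 11.3 in CD4+CD127+PD-1-, 263 ± 44.1 in CD8+CD127-PD-1+ and 254 ± 55.4 in CD8+CD127+PD-1- cells. Gimap6 came next in all 4, at 61.6 ± 7.89, 136 ± 21.4, 66.5 ± 8.54 and 124 ± 2.40 in the same order. Neither overlapped any neighbour in that order. Gimap8 followed in every group, with means of 31.4 to 36.6, and its libraries overlapped those of Gimap3 (means 27.0 to 32.8) in all groups except CD4+CD127+PD-1-. Gimap5 was lowest in every group, at 9.37 to 12.0, and overlapped Gimap7 in CD8+CD127+PD-1- libraries. The ranks of Gimap9 and Gimap7 differed between the states: Gimap9 ranked the fifth in the CD127+PD-1- groups (27.8 ± 3.63 in CD4 and 28.6 ± 3.96 in CD8 cells) and the seventh in the CD127-PD-1+ groups (19.7 ± 2.67 and 18.7 ± 2.30). Gimap7 ranked the seventh in the CD127+PD-1- groups (13.6 ± 0.479 and 18.8 ± 9.34) and stood at 21.2 ± 1.95 and 27.5 ± 4.96 in the CD127-PD-1+ groups. The libraries of Gimap7 and Gimap9 overlapped in CD4+CD127-PD-1+ as well as in CD8+CD127+PD-1- cells, and so did those of Gimap7, Gimap3 and Gimap1 in CD8+CD127-PD-1+ cells.

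The make-up of the family's counts shifted with the state more than their sum did. In CD4 cells the 8 genes together measured 1133 ± 141 CPM in the CD127-PD-1+ and 1319 ± 101 CPM in the CD127+PD-1- state, with 1116 ± 160 and 1335 ± 155 CPM in CD8 cells, and the groups overlapped in both lineages. Gimap6 made up 19.0 to 19.1% of the family's counts in CD4+CD127-PD-1+ and 32.3 to 37.9% in CD4+CD127+PD-1- libraries, and 20.3 to 21.6% against 29.1 to 35.0% in CD8 cells. The share of Gimap4 was higher, with 42.0 to 44.8% against 31.5 to 35.0% in CD4 and 40.9 to 45.1% against 32.4 to 38.6% in CD8 cells. That of Gimap7 was higher too (3.74 to 5.08% against 2.14 to 2.61%, and 5.59 to 5.96% against 2.1 to 4.49%). So was that of Gimap1 (7.36 to 8.15% against 5.86 to 6.25%, and 6.67 to 7.45% against 5.71 to 5.97%). In each lineage the shares of Gimap6, Gimap4, Gimap7 and Gimap1 did not overlap between the states. Shares add up to 100%, so a lower share of Gimap6 raises the others, and the level of Gimap4 itself did not pass the test. Set against the other 7 members, the log2 ratio of Gimap6 differed by -1.25 in CD4 and -0.89 in CD8 cells, that of Gimap9 by -0.28 and -0.36, and that of Gimap7 by 0.89 and 0.95. These ratios are given as a description, with no test.

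**Figure D3:**
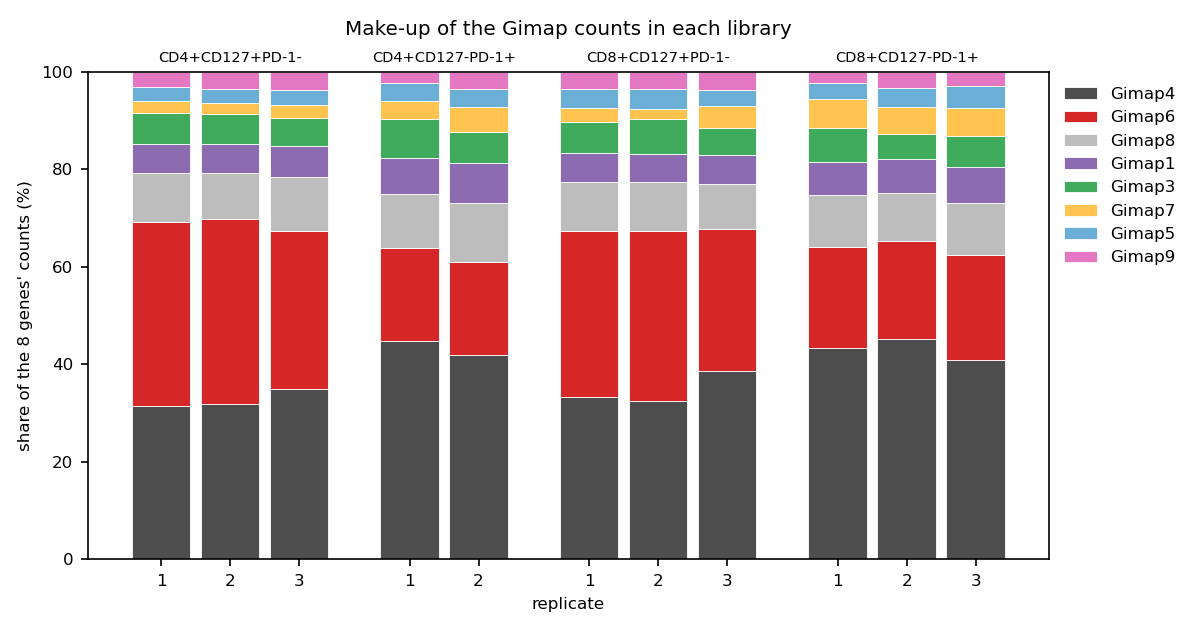
Share of the 8 genes' counts (vertical axis, %) taken by each Gimap gene in each of the 11 libraries, ordered by sorted population and replicate. The red part, Gimap6, is 19.0 to 21.6% in the CD127-PD-1+ libraries and 29.1 to 37.9% in the CD127+PD-1- libraries.

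Between the lineages no member passed the test. In the CD127+PD-1- state, where 4.42% of all tested genes were called between CD4 and CD8 cells, 0 of 8 members were, and 1 of 8 had an unadjusted p under 0.05. That member was Gimap5, which was lower in all 3 CD4 libraries (37.7 to 40.7 CPM) than in all 3 CD8 libraries (48.0 to 51.0 CPM), with a log2 fold change of -0.35 (CD4 over CD8, SE 0.10, interval -0.58 to -0.13, adjusted p = 0.088). DESeq2 called it (-0.36, adjusted p = 0.0325), and none of the other alternatives run did. In the same comparison Gimap7 had an estimate of -0.47 (interval -1.08 to 0.13, adjusted p = 0.426) and Gimap6 one of 0.13 (adjusted p = 0.684). In the CD127-PD-1+ state, where 2.44% of all genes were called, 0 of 8 members were called and 0 of 8 had an unadjusted p under 0.05 in edgeR's test, and DESeq2 called 0 as well. Estimates there ran from -0.38 for Gimap7 (adjusted p = 0.691) to 0.24 for Gimap3.

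The test of whether the state change differed between CD4 and CD8 cells called 1 gene in all (0.00611% of those tested), and 0 of 8 members by edgeR, with 0 of 8 at an unadjusted p under 0.05 and 0 by DESeq2. The largest estimates among the members were 0.31 for Gimap3 (adjusted p = 0.99) and 0.30 for Gimap5 (interval -0.04 to 0.64, adjusted p = 0.92), and the median standard error was 0.22.

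Across the 11 libraries the members fell into pairs that moved together and pairs that did not, on the scale of log2 CPM. Gimap6 and Gimap9 had r = 0.81 over the libraries and -0.17 once group means were removed, so their likeness lay between the groups. Gimap1 and Gimap4 had r = 0.82 and, within groups, 0.92, and Gimap3 and Gimap8 had 0.77 and 0.72, so theirs lay mostly between pools of the same group. Gimap6 and Gimap7 had r = -0.62 over the libraries and 0.18 within groups. The libraries share their depth and make-up across all of these pairs, and the coefficients are a description over 11 points.

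The search for genes of like profile left out predicted genes (Gm or Rik names), genes without a name, pseudogenes and antigen receptor segments. It covered 5766 other genes whose mean log2 CPM was 4 or more. The profile most like the mean of the 8 members over the 11 libraries was that of Il21r (r = 0.905), which encodes the receptor of IL-21. It was followed by Arl2bp (0.836), Fam32a (0.82), Phrf1 (0.818), Mark3 (0.804) and Arid1a (0.802), where the median r over all these genes was 0.016. The profiles most like that of Gimap6 alone, a comparison added after its values were seen, were those of Saraf (r = 0.979), a regulator of store-operated calcium entry, Kif1b (0.971), a kinesin motor, Vps37b (0.969), a subunit of the ESCRT-I complex, and Dirc2 (0.966), a lysosomal transporter. RP24-176P19.6 (0.966) and Lef1 (0.964), which is also on the quiescence list below, came next. Since these genes were chosen for following Gimap6 over the same libraries, a lower level in the CD127-PD-1+ state comes with the choice and is not a result of this comparison.

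The 4 nearest protein-coding genes on each side of the cluster within 250 kb were taken as its neighbours. Before the cluster AI854703, Zfp775 and Repin1 were measured at 0.073 to 3.83 CPM and none was called in a state comparison. The intervals of AI854703 (-3.01 to 0.51 in CD8 cells) and Zfp775 (-1.49 to 0.40) were too wide at these levels to compare with Gimap6. Repin1 had estimates of 1.15 in CD4 (interval 0.14 to 2.15, adjusted p = 0.138) and 0.33 in CD8 cells (interval -0.59 to 1.25, adjusted p = 0.658). Its intervals did not reach those of Gimap6 (-1.48 to -0.81 and -1.20 to -0.61). Rarres2 was too low to be tested. After the cluster come Tmem176b and Tmem176a, at 63.0 and 70.1 kb, which encode membrane channels best known from dendritic cells and RORgt-expressing T cells, and then Aoc1 and 1600015I10Rik, which were too low to be tested. Tmem176b measured 52.9 ± 17.9 CPM in CD8+CD127-PD-1+ and 6.98 ± 3.21 CPM in CD8+CD127+PD-1- cells, a log2 fold change of 2.92 (SE 0.43, adjusted p = 0.000995), and Tmem176a rose by 2.64 (SE 0.36, adjusted p = 0.000654). In CD4 cells their changes of 1.24 (adjusted p = 0.0861) and 0.54 (adjusted p = 0.379) did not pass the test, and the difference between the lineages did not either (adjusted p = 0.808 and 0.545). The annotated bodies of both genes overlap on opposite strands, so their reads may be assigned uncertainly. Both were higher in CD4 than in CD8 cells of the CD127+PD-1- state, by 2.16 (adjusted p = 0.0123) and 2.53 (adjusted p = 0.00184). Within the cluster, the genes on either side of Gimap6, Gimap4 and Gimap7, had positive estimates in both lineages that did not pass the test.

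**Figure D4:**
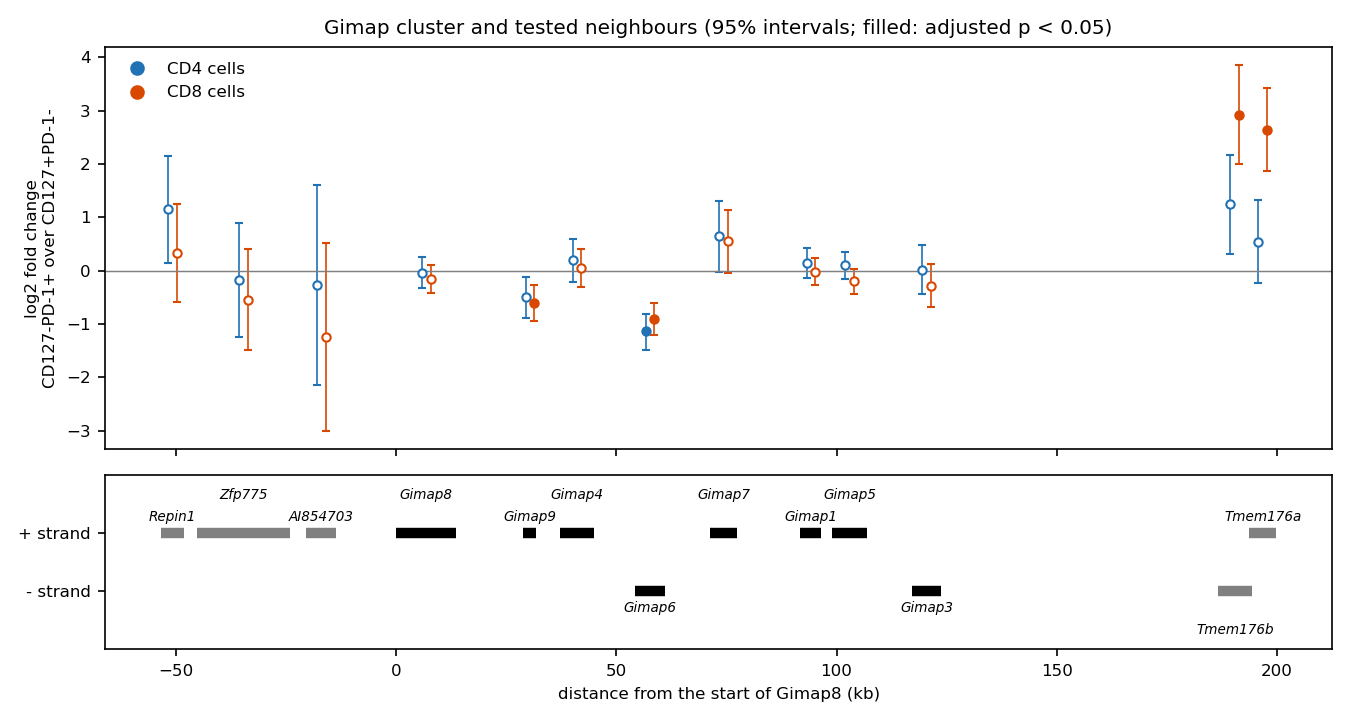
Log2 fold change of the Gimap genes and the tested neighbours, CD127-PD-1+ over CD127+PD-1- (upper vertical axis; blue CD4, orange CD8, bars 95% intervals, filled points passed the test), against distance in kb from the start of Gimap8 (horizontal axis), with the gene bodies by strand below (black Gimap, grey neighbours). Gimap6 lies below 0 between Gimap4 and Gimap7, which do not, and Tmem176b and Tmem176a lie at 2.92 and 2.64 in CD8 cells.

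Of 18 genes for proteins tied to GIMAP function (ATG8 and BCL2 families, GSK3 kinases, beta-catenin and a heat shock protein), 1 fell and 2 rose in CD4 and 2 fell and 3 rose in CD8 cells, with medians of 0.12 and 0.11. Over all tested genes the shares called lower and higher were 4.87% and 6.81% in CD4 and 6.56% and 9.05% in CD8 cells, and the lower count of 1 of 18 in CD4 cells is near that share. Gabarapl2, which encodes the partner of GIMAP6 and was singled out after its values were seen, measured 7.60 ± 2.19 CPM in the CD127-PD-1+ and 7.69 ± 0.585 CPM in the CD127+PD-1- state of CD4 cells, and 6.22 ± 1.72 and 6.75 ± 0.278 CPM in the CD8 groups. It did not pass the test in CD4 (-0.02, adjusted p = 0.981) or CD8 cells (-0.12, adjusted p = 0.795). Among its relatives, Map1lc3b fell in CD8 cells (-0.50, adjusted p = 0.00746) and had an estimate of -0.25 in CD4 cells that did not pass the test (adjusted p = 0.206), without overlap of the groups; the difference between the lineages did not pass either (0.25, adjusted p = 0.956). Gabarap rose in CD8 cells (0.51, adjusted p = 0.0428), a call that was kept in 8 of 17 alternative settings. The survival factor Bcl2 fell from 171 ± 41.3 to 79.3 ± 47.9 CPM in CD4 (-1.11, adjusted p = 0.0478) and from 263 ± 42.7 to 94.4 ± 14.8 CPM in CD8 cells (-1.48, adjusted p = 0.00516). The CD4 call of Bcl2 was kept in 9 of 16 alternative settings. It was lost without replicate 2 of CD4+CD127-PD-1+ (-0.59, adjusted p = 0.229) and without each CD4+CD127+PD-1- library (adjusted p = 0.0599 to 0.152), among others. Its relative Bcl2l1, which encodes BCL-XL, rose from 9.40 ± 0.965 to 21.7 ± 1.62 CPM in CD4 (1.21, adjusted p = 0.0047) and from 7.71 ± 0.904 to 13.4 ± 3.13 CPM in CD8 cells (0.79, adjusted p = 0.0179), and the death effector Bak1 rose by 0.89 and 0.81 (adjusted p = 0.023 and 0.0182). The CD8 call of Bcl2l1 was kept in 11 of 17 alternative settings, and the calls of Bak1 in 12 of 16 in CD4 and 13 of 17 in CD8 cells.

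The 23 genes of the autophagy core had 1 member lower and 3 higher in each lineage, with medians of -0.14 in CD4 and -0.06 in CD8 cells. The count of 1 lower is near the share of all genes called lower (4.87% and 6.56%), and 3 of 23 higher stands beside 6.81% and 9.05% over all genes. Atg13, which encodes a subunit of the ULK1 complex, fell by 0.49 in CD4 (adjusted p = 0.023) and 0.50 in CD8 cells (adjusted p = 0.00908). The higher members were Lamp2 (0.91 and 1.36, adjusted p = 0.0156 and 0.000749), Lamp1 (0.84 and 0.68, adjusted p = 0.0295 and 0.0372), both of them membrane proteins of lysosomes, and Tfeb (0.80 and 0.96, adjusted p = 0.043 and 0.00965), which encodes a transcription factor of lysosomal genes. The CD8 groups overlapped for Lamp1, and its kept calls were not counted over the settings. With pan-T counts as library size the list's higher count in CD4 cells was 0, so its CD4 call was lost there too. Over all genes 754 were higher in CD4 cells under that scaling, against 1115 in the main test. In CD4 cells the calls were kept in 13 of 16 alternative settings for Lamp2 and in 7 of 16 for Tfeb and for Atg13. Without replicate 1 of CD4+CD127-PD-1+ the values were 0.60 for Lamp2 (adjusted p = 0.149) and 0.45 for Tfeb (adjusted p = 0.343). Lamp2 was also lost without replicate 2 of CD4+CD127+PD-1- (adjusted p = 0.0607), Tfeb without each CD4+CD127+PD-1- library (adjusted p = 0.0552 to 0.136), and Atg13 in each of the 5 fits without a CD4 library (adjusted p = 0.0548 to 0.124). The macrophage genes given above moved with the same contrast, and their part in these calls was not tested.

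Of 16 interferon-inducible GTPases, another family of immune GTPases, 1 was lower and 3 were higher in each lineage, with medians of 0.22 and 0.08, where 4.87% and 6.56% of all genes were lower and 6.81% and 9.05% higher. The lower member was Tgtp1 in both (-1.85 and -1.62, adjusted p = 0.00263 and 0.00147), which was near the low end of the counts at 2.02 to 7.30 CPM by group. The higher members in CD4 cells were Mx1 (1.19, adjusted p = 0.0164), an antiviral dynamin-like GTPase, Gbp3 and Irgm1, and in CD8 cells Mx1 (1.02, adjusted p = 0.0155), Gbp3 and Iigp1 (1.15, adjusted p = 0.00946). The CD4 value of Mx1 was 0.73 (adjusted p = 0.169) without replicate 1 of CD4+CD127-PD-1+. Members of this family were also called between the lineages. In the CD127+PD-1- state 4 were higher in CD4 than in CD8 cells (Irgm2, Igtp, Iigp1 and Gbp6), and in the CD127-PD-1+ state 3 (Igtp, Iigp1 and Gbp6). Of all genes 4.42% and 2.44% were called in either direction. The libraries of the lineages overlapped for Gbp6 in both states, and Irgm2 was close to the threshold (adjusted p = 0.0426). The difference between the families was not tested.

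The quiescence list, transcription factors and growth regulators of resting lymphocytes, had the most lower members of the lists (24 of its 25 genes were tested): 13 of 24 in CD4 and 10 of 24 in CD8 cells, with 0 and 2 (Runx1 and Rb1) higher and medians of -0.47 and -0.32. Over all tested genes 4.87% and 6.56% were called lower. Satb1, a chromatin organiser, fell from 1170 ± 68.6 to 221 ± 25.6 CPM in CD4 and from 937 ± 126 to 149 ± 40.1 CPM in CD8 cells. Tcf7 and Lef1, which encode transcription factors of naive and memory T cells, fell by 1.95 and 2.49 on the log2 scale in CD4 and by 2.05 and 2.69 in CD8 cells. The estimates of these 3 genes lay beyond the 95% interval of Gimap6 in each lineage, while 7 of the 8 Gimap genes in CD4 and 6 in CD8 cells did not pass the test. These 3 were named for their small p in the same data, so large falls come with the choice. In CD4 cells the other called members Klf13, Foxo1, Tob1, Btg1, Btg2 and Cdkn1b had smaller falls by estimate (-0.84 to -0.36) than Gimap6. Those of Klf2, Klf3, Foxp1 and Bach2 (-1.71 to -1.2) were larger. Tob1, Klf2, Klf3 and Foxp1 lay within the interval of Gimap6 (-1.48 to -0.81). In CD8 cells Tob1 (-0.95), Foxp1 (-0.96), Klf3 and Bach2 (both -1.17) lay within that of Gimap6 (-1.2 to -0.61). Klf2 (-1.4) lay below it, and Foxo1 (-0.6) and Klf13 (-0.41) lay above it. These genes were not tested against Gimap6. Without either CD4+CD127-PD-1+ library fewer members of the list, and fewer genes in all, were lower in CD4 cells, in fits that leave 1 library in that group. With pan-T counts as library size the list's lower count was 5 in each lineage. Under that scaling 310 of all 16365 genes were lower in CD4 and 389 in CD8 cells, against 797 and 1074 in the main test.

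**Figure D5:**
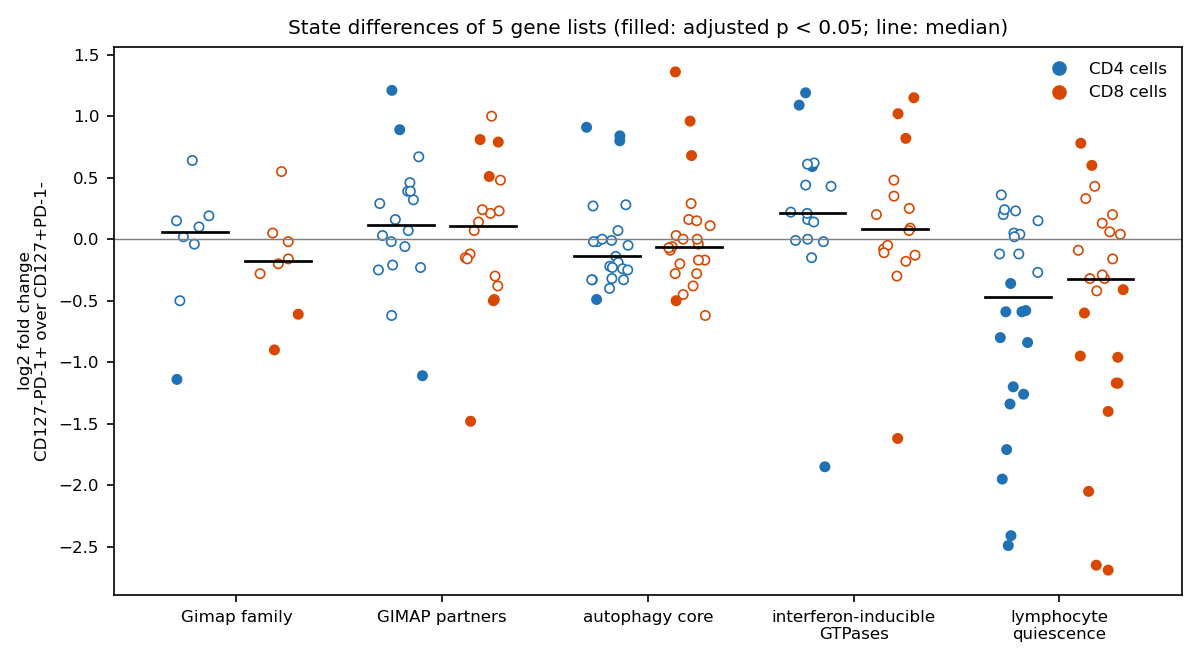
Log2 fold change, CD127-PD-1+ over CD127+PD-1- (vertical axis), of every tested gene of 5 lists in CD4 (blue) and CD8 cells (orange); filled points passed the test and black lines are list medians, with a small random sideways spread of the points. The Gimap medians are 0.06 and -0.18 and those of the quiescence list -0.47 and -0.32.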

How the data were processed

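RNA of 11 libraries was measured per the labels from 2 ng of total RNA by SPIA (an isothermal cDNA amplification) and single-end reads of 75 bases. The authors deposited raw counts per gene, made with STAR and featureCounts on GRCm38, per the submitters' processing notes; tool versions, strandedness and the gene annotation's release were not given in the sources used here. Of the table's columns 1 matched no labelled sample and was not used. Counts were tested in R 4.3.3 with edgeR 4.0.16: filterByExpr at its defaults (16365 genes), TMM scaling, a mean for each of the 4 groups over all 11 libraries, the quasi-likelihood test, and Benjamini-Hochberg adjustment over all tested genes at 0.05. CPM use TMM-scaled library sizes, and log2 CPM a prior count of 2. Alternatives used DESeq2 1.42.0, limma 3.58.1, other scalings and filters, thinning, replicate blocks and each library left out. The fitting was tested on simulated data.

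Coordinates came from GENCODE M21 (GRCm38; 45143 of 46078 identifiers found) and upstream sequences from RefSeq (GRCm38.p6). Replicates differed by more than counting noise (chi-square per degree of freedom of 12 or more). The members and gene lists were chosen with earlier results of these data known. Named were all 8 members, Il7r and Pdcd1, up to 3 called members with the smallest p of each of 4 other lists, the 4 nearest protein-coding neighbours on each side, and the 6 genes most like the mean of the members. Other list genes given as the whole of a small count, Gabarapl2, and the genes most like Gimap6 were named after their values were seen. The result of 1 further marker list is not reported here.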

Additional observations from a re-analysis of the deposited data

How the results depend on the processing

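Each of the 5 comparisons was recomputed under the alternatives given above. Gimap6 stayed called and lower in all 16 of the CD4 comparison (-1.28 to -1.01, adjusted p = 7.48e-10 to 0.0114) and all 17 of the CD8 comparison (-1.01 to -0.72, adjusted p = 4.49e-08 to 0.0304). Gimap9 stayed lower in CD8 cells in all 17 (-0.71 to -0.39, adjusted p = 0.00342 to 0.211) and was called in 13. The number of lower members in CD4 cells was 2 with the replicate block on the numbers in the sample descriptions (Gimap9, -0.56, adjusted p = 0.0414), and 1 member was higher when only the compared groups were fitted. With pan-T counts as library size 1 member was lower and 1 higher in CD8 cells. Leaving out a library gave 1 to 2 lower and 0 to 1 higher members there. DESeq2 called 1 member lower between lineages in CD127+PD-1- cells.

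Several estimates near 0 changed sign, none of them called. In CD4 cells Gimap3 was 0 without a filter and by limma-voom, -0.01 without mitochondrial genes and -0.05 with the replicate block on title numbers. In CD8 cells Gimap1, Gimap5 and Gimap8 were 0.19, 0.01 and 0.02 with pan-T counts as library size, and Gimap1 was 0.03 with the description block. Gabarapl2 was 0.05 and 0.04 there under the same settings. With each library left out, CD4 values ran from -0.27 to 0.28 for Gimap3, -0.02 to 0.21 for Gimap5, -0.11 to 0.03 for Gimap8 and -0.34 to 0.25 for Gabarapl2. In CD8 cells they ran from -0.1 to 0.09 for Gimap1, -0.07 to 0.24 for Gimap4 and -0.26 to 0.1 for Gabarapl2, and between lineages in CD127-PD-1+ cells from -0.18 to 0.04 for Gimap5 and -0.24 to 0 for Gimap6. The cause of these changes was not tested.

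The replicate numbers were not taken as pairing the samples, since not every pair with the same number had a correlation over 0.1. Correlations were taken between libraries of different groups on log2 CPM after group means were removed. In CD4+CD127-PD-1+, with 2 libraries, the values of 1 library are then the negatives of the other's, so the pairs are not independent. Libraries with the same description number had correlations of 0.001 to 0.325 (12 pairs, median 0.153, 10 over 0.1), against a median of -0.081 in 33 pairs with different numbers (4 over 0.1), which is a hint of pairing from the data and not from the design. Those with the same title number had -0.209 to 0.318 (15 pairs). The blocks changed no call of a member other than that of Gimap9 in CD4 cells. Over all genes, the difference of the state changes called 1 gene in the main test, 57 by DESeq2 and 85 without a filter.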
